A study of Mus musculus with 4 samples.

Results

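The cells described here are hippocampal somatostatin (Sst) interneurons low in neuropeptide Y (Npy), 742 of the 14820 hippocampal cell barcodes and of the 26987 in all 10 libraries. They were chosen by measured values. A cell had 200 to 6000 genes, under 30% mitochondrial UMIs (unique molecular identifiers, counted transcripts), at least 2 UMIs of Gad1 and Gad2 together, no Mog, and Sst at or above 3000 CPM (UMI counts scaled to a common total per cell or library). It also had under 2 UMIs of Th, under 2 of Chodl, under 3 of Nos1 and under 3 of Npy. These 8 gate genes are given below as a description only and are left out of the counts of tested and called genes.

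The study sorted TdTomato-positive cells from frontal cortex and hippocampus of mice of both sexes at postnatal day 18 to 20, and asked what loss of NMDA receptors does to interneurons of the medial ganglionic eminence (MGE). WT mice were Nkx2-1Cre:Grin1wt/wt and Grin1-null mice Nkx2-1Cre:Grin1fl/fl, all with the Ai14 reporter, so Cre driven from Nkx2-1 labelled cells of the MGE lineage and removed Grin1 there in the null. The lineage also holds oligodendrocytes. Animals were pooled within a replicate, 10 WT and 6 Grin1-null in all, which gave 3 WT and 2 Grin1-null libraries per region. Tetrodotoxin, APV and actinomycin D were present during microdissection, dissociation and sorting.

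In the hippocampus, Sst marks dendrite-targeting interneurons. The best known are the oriens-lacunosum moleculare (O-LM) cells, whose somata lie in stratum oriens and whose axons climb to the distal dendrites of pyramidal cells, where entorhinal input arrives. O-LM cells are known for the nicotinic receptor subunit Chrna2, the postsynaptic adhesion protein Elfn1, reelin (Reln) and the nociceptin precursor Pnoc. Other Sst cells, such as bistratified cells and cells projecting to distant targets, carry Npy, calbindin or further peptides.

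Values per hippocampal library are given in the order WT replicates 1, 2 and 3, then Grin1-null replicates 1 and 2. The members numbered 114, 244, 141, 32 and 211. Their median UMIs were 6461.5, 2305, 11251, 12120.5 and 14821, so both Grin1-null libraries were deeper than every WT library and WT replicate 2 was by far the shallowest. Replicate 1 was made with version 2 chemistry and the others with version 3. Pairs of hippocampal libraries shared 0 to 7 barcodes, and no member's barcode occurred in a second library. Scrublet marked 3 of the 742 members as doublets, and they were kept. Xist, the transcript of the inactive X chromosome, was at 519.8, 0 and 294 against 0 and 0 CPM. In cortical cells of the same gate Xist was at 390, 0 and 28.1 against 208 and 0 CPM. Xist thus differed between libraries, partly with genotype, and between regions within a replicate. The part of the sex mix in the genotype and regional results was not tested.

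Low depth also lowers the number of Npy UMIs. Of the members, 513 had 0 Npy UMIs, 158 had 1 and 71 had 2, and just outside the limit 56 otherwise matching cells had 3 and 45 had 4. The lowest Sst level inside the gate was 3010 CPM and the highest level below it 2996.5. Of the members, 70 had exactly 2 UMIs of Gad1 and Gad2, 26 had 2 of Nos1 and 20 had 1 of Th. Just outside, 84 otherwise matching cells had 1 UMI of Gad1 and Gad2, 4 had 3 of Nos1, 4 had 2 of Th, 58 had 1 of Mog and 0 had 2 of Chodl. Comparisons between Npy classes therefore used cells of at least 4000 UMIs, 480 Npy-low cells and 505 cells with 3 or more Npy UMIs (Npy-high). Their median depths were 11554 and 13023 UMIs.

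Gate genes first, without a test. Sst stood at 11139.8, 12239 and 15144 against 10718 and 17910.2 CPM in the members' summed counts, Gad2 at 879, 1399 and 1241 against 1196 and 1127 and Npy at 40.8, 160.4 and 27.6 against 38.7 and 35.6. Npy was highest in WT replicate 2, the library with the fewest UMIs per cell. Lhx6, the transcription factor that MGE interneurons keep into adulthood, was at 98.7, 100.1 and 84.2 against 77.3 and 101 CPM, with no library standing apart.

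The label names 3 further markers. Reln, the secreted glycoprotein that guides neuronal positioning (ENSMUSG00000042453, chr5:21884454-22344702, GRCm38), was at 172, 423 and 230.4 against 169 and 369 CPM. Aga, the lysosomal enzyme aspartylglucosaminidase (ENSMUSG00000031521, chr8:53511727-53523421), was at 126, 74.7 and 75.7 against 157 and 163, and Ctsc, the lysosomal protease cathepsin C (ENSMUSG00000030560, chr7:88278085-88310888), at 10.5, 6.35 and 6.58 against 24.2 and 26.2. Reln was the most abundant of the 3 in every library and Ctsc the least. Per library, the share of members with a Reln UMI was 43.0%, 49.2% and 58.9% against 62.5% and 73.5%. Over all 742 members a Reln UMI was found in 427 (57.5%), an Aga UMI in 160 (21.6%) and a Ctsc UMI in 57 (7.68%). The members' median depth was 7439 UMIs. In 4639 hippocampal oligodendrocytes (at least 2 Mog UMIs and none of Gad1 and Gad2, median 5697 UMIs) the shares were 0.539%, 19.6% and 0.216%. Reln and Ctsc thus lay above the level of free RNA. Oligodendrocytes had Aga too, and the expected share of cells with an Aga UMI after thinning to 1000 UMIs was 7.77% in members and 3.48% in oligodendrocytes.

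O-LM genes that the gate did not use were present. Elfn1 was found in 376 of 742 members, Pnoc in 425 and Chrna2 in 61, against 29, 32 and 0 of the 4639 oligodendrocytes. The 0 of 4639 bounds detection alone, to a share of up to 0.0647%. After thinning to 1000 UMIs the members' shares were 14.3%, 23.4% and 1.19%, and the oligodendrocytes' 0.101%, 0.133% and 0. Elfn1 levels were close in all 5 libraries, 151, 170.0 and 192 against 152 and 183 CPM. Pnoc was at 195, 65.1 and 444 against 430.2 and 592, lowest in WT replicate 2.

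Marker genes of glutamatergic cells and glia were low in the members. No member had a Vip UMI (0 of 742 bounds detection alone, to a share of up to 0.404%). Slc17a6 and Slc17a7, which define glutamatergic cells, were at 0 in all libraries. The other 6 genes of that list summed to at most 3.95 CPM in a library. Of 9 microglial genes, C1qb, Csf1r, Ctss and Tmem119 were at 0. Of 13 oligodendrocyte genes 12 had UMIs, and Mog was at 0 by the gate. Their summed level was 440.9, 1175, 406 against 256 and 275 CPM, with WT replicate 2 highest, compared with 98276 to 169150 in oligodendrocytes. The 5 genes of oligodendrocyte precursors summed to 6.58, 69.9 and 19.7 against 4.83 and 5.83, again highest in WT replicate 2. Olig1 was the most abundant on average over libraries, but in WT replicate 2 Gpr17 was higher (27.0 against 22.2). Of 8 vascular and choroid plexus genes, Cldn5, Flt1, Folr1, Pecam1 and Vtn were at 0, and Ttr made up most of the sum of 57.9 in WT replicate 3, with 0 to 2.91 elsewhere. The 8 astrocyte genes, all with UMIs and led on average over libraries by Aldoc, summed to 107, 93.7 and 110 against 126 and 176. Genes listed for other interneurons were also found. Of 9 genes of neurogliaform cells, all with UMIs and led on average over libraries by Hapln1, the sum was 141, 222 and 140 against 160 and 198. Of 9 genes of Pvalb cells, all with UMIs and led by Rbp4, it was 1099, 666 and 1897 against 1462 and 970, and of 6 genes of caudal eminence cells, led by Cnr1, 436, 337 and 511 against 263 and 439.

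The members were not uniform. Of the 480 members with at least 4000 UMIs, 315 had a Reln UMI and 165 had none, with median depths of 12787 and 9531 UMIs, and the per-library numbers with Reln were 47, 23, 78, 20 and 147 and without it 53, 6, 44, 10 and 52. This division was chosen after values were seen, so its levels are a description and were not tested. Chrna2 had a UMI in 54 of the 315 Reln cells and in 0 of the 165 others. This bounds detection alone, to a share of up to 1.82% at the lower depth of those cells. Summed per library, Chrna2 was at 13.4, 29.7, 6.91, 3.33 and 28.2 with a Reln UMI and 0, 0, 0, 0 and 0 without.

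Elfn1 was higher with Reln in 4 of 5 libraries (215 ± 39.0 against 101 ± 100.5 CPM, mean ± SD, n = 5), the exception being WT replicate 2, where only 6 cells lacked Reln. Npas1, a transcription factor of interneuron development, was higher in 5 of 5 (248 ± 109.6 against 81.9 ± 39.1), as were Npas3 (115 ± 23.7 against 61.1 ± 22.7), the MGE factor Sox6 (45.8 ± 15.4 against 24.9 ± 5.78) and the neurokinin B precursor Tac2 (28.3 ± 25.7 against 3.07 ± 5.73). Of the O-LM genes, Elfn1 was thus higher in members with Reln in 4 of 5 libraries. Chrna2 was at 0 without Reln in every library, so any UMI with Reln set its direction. With Reln it was as low as 3.33 CPM, in Grin1-null replicate 1.

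Peptide genes differed in both directions between members with and without a Reln UMI. Cortistatin (Cort), a peptide related to somatostatin, was at 29.4, 282, 146, 177 and 92.6 with a Reln UMI and 1525, 0, 949.9, 2036 and 1095 without. Tac1, the precursor of substance P, was at 29.4, 0, 65.2, 113 and 24.8 with a Reln UMI and 344, 0, 1170.2, 794 and 404 without, and a Tac1 UMI was found in 15 of 315 cells with Reln and 46 of 165 without. Both were higher without Reln in 4 of 5 libraries, and in WT replicate 2 Tac1 was at 0 in both classes. Cck (12.2 ± 6.85 against 131 ± 137, with Reln against without) and Cartpt (89.8 ± 78.4 against 287 ± 307) were higher without Reln in 4 of 5, and Vldlr, a receptor for reelin, in 5 of 5 (44.6 ± 13.3 against 87.1 ± 15.7). Crhbp (279 ± 115 against 150.3 ± 57.9) and Pnoc (377 ± 227 against 267 ± 139.6) were higher with Reln in 4 of 5. Aga had a UMI in 22.9% of cells with Reln and 41.2% of those without, and Ctsc in 8.57% and 16.4%. In CPM, Aga was 112 ± 47.9 against 193 ± 116, higher with Reln in 3 libraries and lower in 2.

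Whether low Npy goes with other differences was asked by comparing Npy-low with Npy-high cells within each library. Npy-low cells had more Tac2, Pld5, Npas1, Cnr1, Chrna2 and Pnoc, and less Crhbp, Cort, Oxtr, Cbln4 and Pcdh8. Of 8167 genes tested, 163 were called (2% of those tested; edgeR, where a call needed an adjusted p under 0.01 and a change of 0.1 or more on the natural log scale), 60 higher and 103 lower in Npy-low cells. Of the 163, 106 had the same sign in all 5 libraries. The library was a block in this fit, and without the block edgeR called 0, with 146 at an unadjusted p under 0.05. Without Grin1-null replicate 2, the library with most of the deep cells, 55 were called, and without WT replicate 3, 92. DESeq2 called 47, all among the 163 but without Tac2, Chrna2, Cort and Oxtr. For Tac2, Chrna2 and Oxtr it gave no adjusted p. At an adjusted p under 0.05 edgeR called 273 (3.34%). Of 54 called genes taken from the lists or by size of change, 20 kept and 27 lost their call without Grin1-null replicate 2. Without WT replicate 3, 32 kept and 14 lost it. The rest of the 54 did not pass the count filter in those fits and were not tested.

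The markers in the label did not separate the classes in the direction of Npy-low cells. Reln was 178, 469.5, 229.7, 172 and 366 in Npy-low cells and 88.5, 610.2, 297, 186 and 306 in Npy-high cells (log2 change 0.01 ± 0.11 SE, adjusted p = 0.999), with 2 libraries higher and 3 lower. Aga was 132, 99.8, 76.3, 159.6 and 165 in Npy-low cells and 278, 97.5, 67.6, 243 and 236 in Npy-high cells (log2 change -0.52 ± 0.11 SE, adjusted p = 0.00443), which edgeR called as a fall and DESeq2 did not (adjusted p = 0.323). It was lower in WT replicate 1 and both Grin1-null libraries, while WT replicates 2 and 3 differed little. Ctsc was lower in Npy-low cells in 5 of 5 libraries, at 11.1, 5.87, 6.76, 24.6 and 26.5 in Npy-low cells and 27.5, 29.7, 14.3, 43.7 and 35.7 in Npy-high cells, and did not pass (log2 change -0.69 ± 0.20 SE, adjusted p = 0.0503). Of the label's markers beyond Sst, then, none was called higher in Npy-low cells. By these values the members are best called by their rule, Npy-low hippocampal Sst cells.

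Among the 5 O-LM genes tested, 2 were called, both higher, against 2% called of all genes tested. Chrna2 was at 6.95, 23.5, 4.73, 2.46 and 21.9 in Npy-low cells and 0, 0, 3.07, 5.47 and 6.01 in Npy-high cells (log2 change 1.73 ± 0.37 SE, adjusted p = 0.00403), higher in 4 of 5 libraries, with Grin1-null replicate 1 the exception. Pnoc was at 193, 93.9, 439, 437 and 590.0 in Npy-low cells and 177, 50.9, 285, 243 and 329 in Npy-high cells (log2 change 0.67 ± 0.09 SE, adjusted p = 4.79e-06), higher in 5 of 5, least so in WT replicate 1. Elfn1 (-0.31 ± 0.10 SE) did not pass. DESeq2 called Pnoc and not Chrna2, for which it gave no adjusted p.

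Of the 6 genes tested that mark other hippocampal Sst cells, 4 fell and 1 rose in the edgeR fit, which called 2% of all genes. DESeq2 called none of the 6. Their median log2 change was -0.86 against 0.00 over all genes. Calbindin (Calb1, -0.56 ± 0.09 SE), Tac1 (-0.67 ± 0.15), parvalbumin (Pvalb, -1.05 ± 0.18) and the hippocampal zinc finger gene Zbtb20 (-1.11 ± 0.21) fell. The falls had the same sign in 5 of 5 libraries for Tac1 and in 4 of 5 for Calb1, Pvalb and Zbtb20. The DESeq2 estimate was -1.15 for Tac1 and -0.43 for Pvalb. The chromatin organiser Satb1 rose by a little in 5 of 5 libraries, 549.8 ± 97.2 against 431 ± 88.9 CPM (log2 change 0.32 ± 0.07 SE, adjusted p = 0.00414).

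Of 9 neuropeptide genes tested, 4 rose and 3 fell (median 0.34), against 2% called of all genes tested. Tac2 rose most, 8.33, 5.87, 43.2, 4.91 and 41.2 in Npy-low cells and 0, 0, 22.5, 2.73 and 3.52 in Npy-high cells (log2 change 2.43 ± 0.32 SE, adjusted p = 4.22e-06). It was higher in Npy-low cells of all 5 libraries, and low in Npy-high cells except in WT replicate 3. Crh, corticotropin-releasing hormone, was also higher in 5 of 5, 63.9 ± 26.7 against 30.1 ± 23.7 CPM (log2 change 0.92 ± 0.15 SE, adjusted p = 0.000198). Cartpt rose (0.60 ± 0.13 SE) with 3 of 5 libraries higher. Crhbp, which binds Crh outside the cell, fell, 122, 346, 193, 228 and 344 in Npy-low cells and 137, 919.6, 722, 516 and 803 in Npy-high cells (log2 change -1.36 ± 0.11 SE, adjusted p = 3.98e-10). Its fall was large in 4 libraries and small in WT replicate 1. Cort fell too, 470.3 ± 226 against 1011 ± 431 (log2 change -1.25 ± 0.15 SE, adjusted p = 1.75e-06), in 5 of 5. DESeq2 called Crhbp and not Tac2, Crh, Cartpt or Cort. For Tac2 it gave no adjusted p, with an estimate of 2.26.

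**Figure D1:**
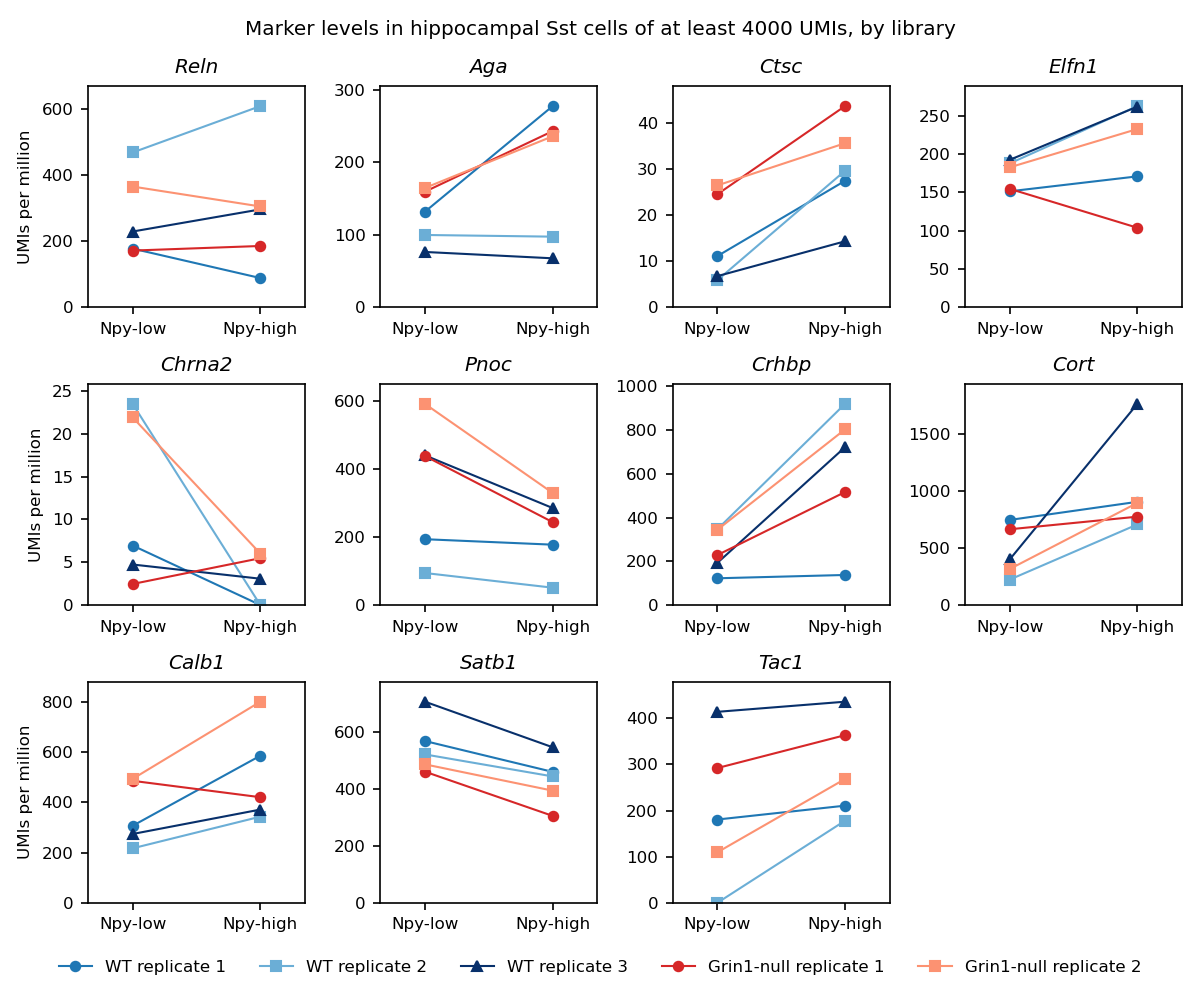
CPM of 11 genes (vertical axes, each with its own scale from 0) in Npy-low and Npy-high hippocampal Sst cells of at least 4000 UMIs, 1 line per library (3 WT in blue, 2 Grin1-null in red). Pnoc and Satb1 fall from Npy-low to Npy-high in all 5 libraries and Crhbp, Cort, Ctsc and Tac1 rise, while the Reln lines cross.

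The genes named next had the largest rises and falls among the calls of 1 sign in 5 of 5 libraries, whatever their list. Pld5, a phospholipase D family member, was at 55.6, 35.2, 54.7, 41.7 and 66.7 in Npy-low cells and 6.11, 25.4, 19.4, 13.7 and 15.8 in Npy-high cells (log2 change 1.87 ± 0.18 SE, adjusted p = 1.7e-08). The lowest Npy-low library lay above the highest Npy-high library. Cnr1, the cannabinoid receptor of axon terminals, was at 289 ± 92.5 against 149.8 ± 38.2 CPM (log2 change 0.99 ± 0.09 SE, adjusted p = 5.24e-09), and Npas1 at 196 ± 84.1 against 92.2 ± 68.1 (log2 change 1.05 ± 0.12 SE, adjusted p = 6.41e-07). Smaller or less abundant rises were those of the growth factor Fgf1 (1.38 ± 0.31 SE), Parm1 (1.32 ± 0.18), the cation channel Trpc5 (1.16 ± 0.17), the matrix protein matrilin 2 (Matn2, 1.09 ± 0.16), the protease inhibitor Serpine2 (1.01 ± 0.13) and Ypel1 (23.7 ± 7.73 against 13.9 ± 5.09 CPM). Of these rises DESeq2 did not call Fgf1, Matn2 and Ypel1, and for Fgf1 and Ypel1 it gave no adjusted p.

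The falls included receptors and adhesion molecules. The oxytocin receptor Oxtr was at 11.1, 0, 4.73, 7.37 and 4.25 in Npy-low cells and 36.6, 17.0, 10.2, 16.4 and 21.8 in Npy-high cells (log2 change -1.94 ± 0.30 SE, adjusted p = 7.46e-05). Its levels were low, at most 36.6 CPM, and lower in Npy-low cells of each library. Pcdh8, a protocadherin of synapses, was at 55.6, 5.87, 37.8, 34.4 and 28.8 in Npy-low cells and 125, 84.8, 82.9, 57.4 and 116 in Npy-high cells (log2 change -1.62 ± 0.15 SE, adjusted p = 1.36e-08), and Cbln4, a secreted synaptic organiser, at 38.1 ± 17.1 against 114 ± 44.3 (log2 change -1.45 ± 0.14 SE, adjusted p = 8.83e-09). The classes did not overlap for Pcdh8, and for Cbln4 they overlapped through Grin1-null replicate 2 and WT replicate 3. The AMPA receptor auxiliary subunit Cnih3 (-1.48 ± 0.26 SE), the transcription cofactor Zfpm2 (-1.54 ± 0.25), the transcription factor Ets1 (-1.42 ± 0.30), Tmtc4 (-1.49 ± 0.19), Rprml (-1.41 ± 0.24) and the calcium-dependent phospholipid-binding protein Cpne2 (-1.35 ± 0.23) completed the group. Of these falls DESeq2 called Pcdh8, Cbln4 and Tmtc4. For the others it gave no adjusted p, with estimates such as -1.85 for Oxtr and -1.54 for Zfpm2.

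**Figure D2:**
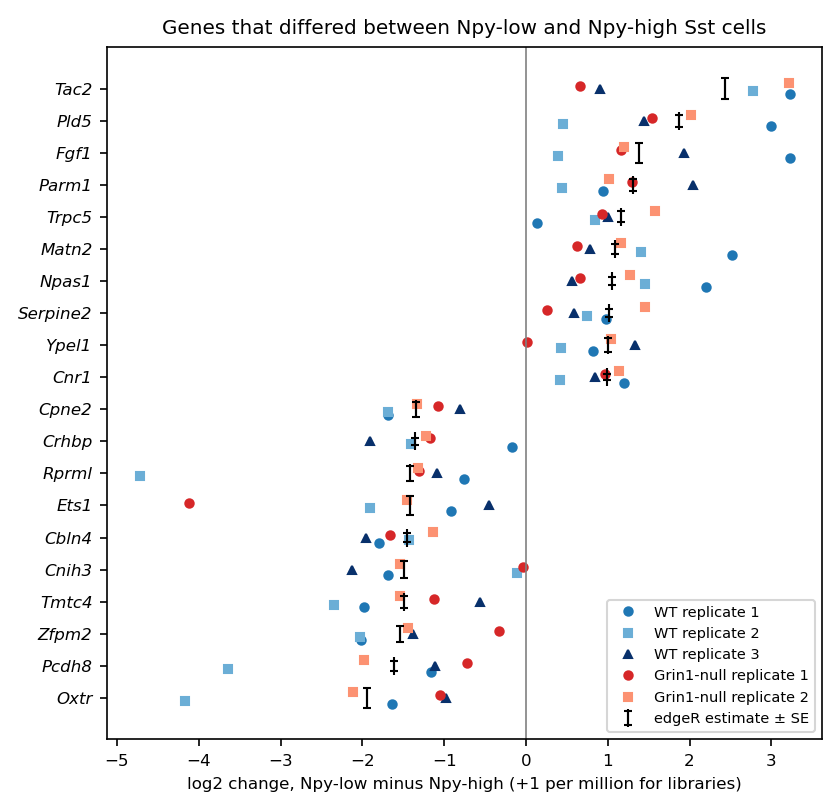
Log2 change between Npy-low and Npy-high cells (horizontal axis) for the 10 largest rises and 10 largest falls, 1 point per library (after adding 1 CPM) and the edgeR estimate with its SE in black. All points of a gene lie on 1 side of 0, with Cnih3 and Ypel1 closest to it.

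Of 19 ionotropic receptor and auxiliary genes tested, 5 fell and none rose (median -0.21, with 2% of all genes called). They were the AMPA subunits Gria1 (761, 546, 733, 894 and 639.7 in Npy-low cells and 1004, 843, 833, 1047 and 874 in Npy-high cells; log2 change -0.39 ± 0.07 SE, adjusted p = 0.000211), Gria3 (-0.54 ± 0.08 SE) and Gria4 (-0.53 ± 0.10), the AMPA auxiliary subunit Cacng3 (-0.83 ± 0.12) and the kainate and NMDA receptor partner Neto1 (-0.37 ± 0.08). Gria1, Gria4, Cacng3 and Neto1 were lower in 5 of 5 libraries and Gria3 in 4. DESeq2 called Gria1, Gria3 and Cacng3. Grin1 did not pass (-0.19 ± 0.15), and its CPM was higher in Npy-low cells of 4 of 5 libraries. None of 12 GABA receptor genes or 3 metabotropic glutamate receptor genes was called by edgeR, against 2% of all genes tested.

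Of 16 cadherin genes tested, 4 fell and 2 rose (median -0.35, with 2% of all genes called). Besides Pcdh8, Pcdh7 (-0.68 ± 0.10 SE), Pcdh11x (-0.73 ± 0.17, lower in 3 of 5 libraries) and Pcdh19 (-0.73 ± 0.13) fell, while Pcdh10 (0.45 ± 0.10) and Pcdh17 (0.59 ± 0.10) rose. Pcdh19 was at 43.1, 52.8, 33.1, 56.5 and 45.1 in Npy-low cells and 61.1, 80.5, 63.5, 79.2 and 73.4 in Npy-high cells, with no overlap. Of 32 synaptic organisers 3 fell, Cbln4, the receptor phosphatase Ptprd (37.4 ± 18.9 against 81.5 ± 59.7 CPM) and neuroligin 1 (Nlgn1, -0.84 ± 0.18), and 1 rose, Lrrtm1 (92.5 ± 13.3 against 51.1 ± 14.8 CPM, log2 change 0.87 ± 0.12 SE, adjusted p = 1.97e-05). Among 24 potassium channel genes Kcnd3 rose (0.54 ± 0.11), and the Kv4 partner Kcnip1 fell (-0.76 ± 0.17). Of the genes in this paragraph DESeq2 called Pcdh8, Pcdh7, Cbln4, Ptprd and Lrrtm1.

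Among 16 MGE transcription factors, Npas1, Npas3 (0.60 ± 0.14 SE) and Satb1 rose and Maf fell, 117, 381, 168, 90.8 and 140.2 in Npy-low cells and 174, 703, 244, 150.3 and 221 in Npy-high cells (log2 change -0.68 ± 0.09 SE, adjusted p = 2.23e-06), in 5 of 5 libraries. Single calls were also made for the ephrin receptor Epha5 (-0.50 ± 0.08, 21 guidance genes) and the secreted neuropeptide precursor Vgf (-0.60 ± 0.09, 10 activity-regulated genes). Over all genes tested, 2% were called. Other cell types entered as well. Ttr, a choroid plexus gene, was called (log2 change -3.73 ± 0.22 SE, adjusted p = 4.16e-13) on WT replicate 3, with 55.4 and 769 CPM and at most 3.05 in either class elsewhere. The oligodendrocyte gene Mbp fell (-0.62 ± 0.15), lower in 3 of 5 libraries, and the astrocyte gene Aldoc rose (0.66 ± 0.15) in 5 of 5. The summed oligodendrocyte list was 419, 1309, 399.9, 260.2 and 269.7 in Npy-low and 482, 771, 407, 240 and 472 CPM in Npy-high cells. Its part in the calls was not tested. Of the genes in this paragraph DESeq2 called Npas1, Maf and Epha5.

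The genotype question was then asked of the members alone. Grin1, which encodes the obligatory NMDA receptor subunit GluN1 (ENSMUSG00000026959, chr2:25291181-25319187), was at 129, 192 and 156 against 26.6 and 12.6 CPM, 159 ± 31.7 (SD, n = 3) in WT and 19.6 ± 9.87 (SD, n = 2) in Grin1-null. Each Grin1-null library lay below each WT library. The edgeR estimate was log2 change -3.23 ± 0.44 SE, adjusted p = 0.0437, short of the threshold of 0.01 used here, and DESeq2 called it (adjusted p = 6.53e-09). With the replicate as a block the change was -3.30 (adjusted p = 0.0493), and within chemistries, after adding 1 CPM, it was -2.24 in replicate 1 and -3.83 in replicate 2. Which exons the floxed allele loses is not given in the sources used here, and 3′ tags outside the deleted stretch would not report the deletion. In the cortical cells of the same gate Grin1 was 221 ± 55.0 and 22.3 ± 9.39.

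**Figure D3:**
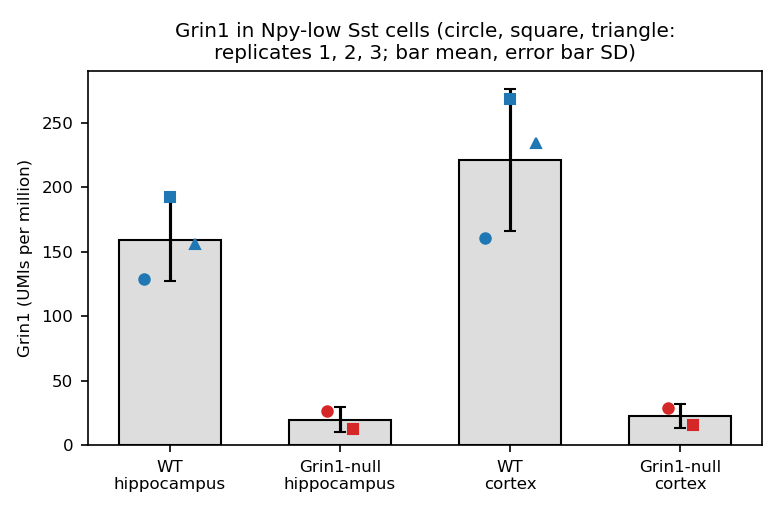
Grin1 in CPM (vertical axis) in the summed Npy-low Sst cells of each library, by genotype and region, with bars at the mean and error bars of 1 SD (n = 3 WT, n = 2 Grin1-null). Both Grin1-null hippocampal libraries, at 26.6 and 12.6, lie below the lowest WT hippocampal library at 129.

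Between genotypes edgeR called 0 of 10127 genes (0%), with 322 at an unadjusted p under 0.05, and DESeq2 called 1, Grin1. At an adjusted p under 0.05 edgeR also called 1 (0.00987%), Grin1. The number at an unadjusted p under 0.05 was 820 with the replicate as a block. It was 575, 259 and 509 without WT hippocampus replicate 1, 2 and 3, and 0 genes were called in each of these fits. Aga and Ctsc were higher in Grin1-null libraries without passing. Aga was 126, 74.7 and 75.7 against 157 and 163 (log2 change 0.81 ± 0.35 SE, adjusted p = 1) and Ctsc 10.5, 6.35 and 6.58 against 24.2 and 26.2 (log2 change 1.71 ± 0.52 SE, adjusted p = 1), and for both the genotypes did not overlap. How many of all genes also separated the genotypes is not given here. Within chemistries Ctsc differed by 1.13 in replicate 1 and 1.89 in replicate 2 and Aga by 0.31 in replicate 1 and 1.12 in replicate 2. Reln did not pass (-0.02 ± 0.39 SE). Depth went with genotype in the same libraries.

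The gene lists held no call either, and their medians are given against -0.02 over all genes. The O-LM list had a median of -0.02 (5 tested), with Pnoc at 1.13 ± 0.61 SE, Chrna2 at 0.87 ± 0.59 and Elfn1 at -0.02 ± 0.27. Calb1 was higher in both Grin1-null libraries, 312, 357 and 271 against 481 and 493 (log2 change 0.64 ± 0.28 SE, adjusted p = 1), and Satb1 lower, 567, 572 and 706 against 474 and 489 (log2 change -0.35 ± 0.25 SE, adjusted p = 1). Of 16 MGE transcription factors 15 had estimates below 0 (median -0.32), among them Myt1l at 234, 497 and 344 against 215 and 294 (-0.49 ± 0.34) and Zeb2 at 195, 429 and 233 against 172 and 216 (-0.56 ± 0.43), both highest in WT replicate 2, while Lhx6 was at -0.06 ± 0.31. Neuropeptides had a median of -0.05 over 11 genes, with Cort at 0.08 ± 0.57 and Crhbp at 0.68 ± 0.36.

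Among 21 ionotropic glutamate receptor genes the median was -0.20 and 16 estimates were below 0. Of the other NMDA receptor subunits, Grin2b was at 482, 801 and 432 against 430.2 and 353 (log2 change -0.55 ± 0.33 SE, adjusted p = 1). Grin3a was at 216, 339.9 and 261 against 181 and 229 (-0.41 ± 0.33 SE) and Grin2d at 44.7, 22.2 and 48.7 against 36.3 and 41.1 (-0.01 ± 0.34). Grin2a averaged 42.1 ± 25.5 CPM (SD) over the hippocampal libraries and Grin2c 0.326, and their genotype changes are not given here. Grin2b was highest in WT replicate 2, and Grin1-null replicate 1 lay just below the lowest WT library, whereas Grin2d and Grin3a overlapped. Gria1 (0.10 ± 0.29), Gria2 (-0.40 ± 0.28) and Grm5 (0.09 ± 0.31) did not pass, nor did the inhibitory receptor Gabbr1 (0.15 ± 0.26) or the vesicular GABA transporter Slc32a1 (0.39 ± 0.33).

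Lysosomal genes had a median of 0.31 over 35 genes, 26 of them above 0. Ctsb, cathepsin B, was at 247, 265 and 285 against 449.5 and 418 (log2 change 0.71 ± 0.31 SE, adjusted p = 1) and Psap, the saposin precursor, at 493, 440.0 and 692 against 703 and 789.9 (log2 change 0.47 ± 0.28 SE, adjusted p = 1). Both Grin1-null libraries lay above the WT libraries for each gene, by little for Psap, and neither passed. The share of all genes with such a separation is not given here. Of the activity-regulated genes, Fos was at 15.8, 327 and 17.1 against 4.83 and 182, high in replicate 2 of both genotypes. Within chemistries, after adding 1 CPM, it differed by -1.53 in replicate 1 and -0.84 in replicate 2, lower in Grin1-null in both, and with the replicate as a block its change was -0.78 ± 0.38 SE (adjusted p = 0.617). Jund was at 604, 588 and 829.9 against 423 and 682, and the genotypes overlapped. The 16 activity-regulated genes had a median of 0.42, and of -0.19 with the replicate as a block. Synaptic organisers had a median of -0.12 (33 genes), guidance genes -0.18 (27 genes), cadherins -0.27 (17 genes) and potassium channels 0.07 (29 genes). The 9 oligodendrocyte genes tested all had estimates below 0 (median -1.08), in step with the summed levels given above, highest in WT replicate 2.

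The difference between regions in the genotype change was tested in the same fit. edgeR called 0 of 10127 genes (0%), with 120 at an unadjusted p under 0.05, and DESeq2 called 0. For Grin1 the difference was 0.35 ± 0.64 SE (adjusted p = 1). Between Npy classes the genotype change differed for 1 of 8167 genes (0.0122%; edgeR), Bcas1, a gene of myelinating oligodendrocytes, at 1.39, 293, 27.0, 0 and 2.62 in Npy-low cells and 0, 12.7, 9.21, 0 and 9.74 in Npy-high cells (log2 change -4.74 ± 0.75 SE, adjusted p = 0.0012). WT replicate 2 stood apart with 293 CPM in Npy-low cells, and without that library edgeR called 0 genes, with 319 at an unadjusted p under 0.05. It also called 0 without WT replicate 3, and without Grin1-null replicate 2 it called 2 genes, neither of them Bcas1. Oligodendrocyte precursor genes summed to 106 in those cells and 29.7 in Npy-high cells of the same library, and their part in the call was not tested.

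The share of members with a Reln UMI was compared by an exact permutation test over 3 WT and 2 Grin1-null libraries, two-sided, for which the smallest possible p is 0.1. The expected share after thinning each member to 1000 UMIs was 13.4%, 29.9% and 17.2% against 13.2% and 26.9% (exact p = 0.9). The permutation exchanged libraries across chemistries. Within replicate 1 the share was 13.4% in WT and 13.2% in Grin1-null, and within replicate 2 it was 29.9% and 26.9%. In 23 members below 1000 UMIs no share could be taken. Without thinning the shares were 43.0%, 49.2% and 58.9% against 62.5% and 73.5% (exact p = 0.2), in the order of depth within each genotype except for WT replicate 2. The Npy-low share of gated Sst cells rests on a gate gene and is given without a test. Thinned to 4000 UMIs, it was 69.3%, 46.1% and 70.9% against 61.5% and 52.3%, with WT replicate 2 the lowest. Unthinned over cells of all depths it was 64.0%, 60.2% and 62.7% against 53.3% and 39.2%, where the genotypes did not overlap but depth differed.

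WT members were finally set beside WT cortical cells that pass the same gate, 499 cells against 1095. Values per region are in the order of replicates 1, 2 and 3. Hippocampal cells had more Aga, Col25a1, Gucy1a3 and Tenm2 and less Rprml, and these were the 5 genes called of 9718 tested (0.0515%; edgeR). With the replicate as a block, 199 of 10212 genes were called (1.95%), 121 higher and 78 lower in hippocampus, and the 5 were among them. The fits that follow in this paragraph had no block and so ignored the pairing by replicate. DESeq2 called 126, and at an adjusted p under 0.05 edgeR called 109 (1.12%). In cells of at least 4000 UMIs edgeR called 24, and without WT hippocampus replicate 2 it called 25. It called 0 without WT hippocampus replicate 3 and 0 without any 1 of the 3 WT cortex libraries. Without WT hippocampus replicate 1 it called 5, of which 3 were the same.

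Gucy1a3, a subunit of the nitric oxide receptor guanylyl cyclase, was at 75.01, 65.1 and 52.0 in hippocampus against 4.19, 4.06 and 5.34 in cortex (log2 change 3.73 ± 0.32 SE, adjusted p = 0.00359). Col25a1, a transmembrane collagen of neurons, was at 84.2, 130.3 and 82.3 in hippocampus against 3.59, 9.48 and 5.11 in cortex (log2 change 4.05 ± 0.39 SE, adjusted p = 0.004), and Aga at 126, 74.7 and 75.7 in hippocampus against 1.20, 4.06 and 5.11 in cortex (log2 change 4.58 ± 0.43 SE, adjusted p = 0.004). Each hippocampal library lay far above each cortical library for these 3 genes. Tenm2, a teneurin that binds latrophilins across the synapse, was at 153, 178 and 174 in hippocampus against 32.3, 29.1 and 34.8 in cortex (log2 change 2.37 ± 0.25 SE, adjusted p = 0.0068). Rprml was lower, 1.32, 3.18 and 7.90 in hippocampus against 64.1, 69.1 and 73.8 in cortex (log2 change -3.83 ± 0.43 SE, adjusted p = 0.00847). The regional differences of Aga and Tenm2 were known from the same libraries before, so they are no independent support. Ctsc did not pass the count filter, at 10.5, 6.35 and 6.58 in hippocampus against 0, 0.677 and 0 in cortex, the latter from 1 UMI. Reln was not called (log2 change -0.55 ± 0.34 SE, adjusted p = 0.91).

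In the edgeR fit without the block the genes below were not called, and their values are given with it. DESeq2 called part of them without it. They come from the lists, picked once their values were known. Of 12 neuropeptide genes, 4 were higher in hippocampus and 3 lower, against 1.95% called of all genes with the block. Crhbp was at 121, 224 and 193 in hippocampus against 24.6, 54.2 and 51.1 in cortex (log2 change 2.05 ± 0.21 SE, adjusted p = 5.16e-05) and Cort at 734, 248 and 400.2 in hippocampus against 70.1, 109 and 94.3 in cortex (log2 change 2.21 ± 0.31 SE, adjusted p = 0.000544). Pnoc (1.73, with WT hippocampus replicate 2 inside the cortical range) and Pthlh (2.54) were also higher. Prodynorphin (Pdyn) was far lower, 0, 22.2 and 1.97 in hippocampus against 213, 215 and 165 in cortex (log2 change -5.00 ± 0.50 SE, adjusted p = 4.68e-05), and Crh (48.7, 54.0 and 72.4 in hippocampus against 192, 141 and 202 in cortex; log2 change -1.62 ± 0.22 SE, adjusted p = 0.000501) and Tac2 (-2.23) were lower. Tac2 overlapped between regions although it was lower in hippocampus within each replicate.

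Of 33 synaptic organisers 6 were higher and none lower (median 0.29 against 0.01 over all genes, of which 1.95% were called). Besides Tenm2 these were Tenm3 (48.7, 89.0 and 86.9 in hippocampus against 6.59, 11.5 and 12.3 in cortex; log2 change 2.85 ± 0.25 SE, adjusted p = 1.77e-05), Tenm4 (1.74), Cbln4 (48.7, 27.0 and 14.5 in hippocampus against 1.80, 5.42 and 3.02 in cortex; log2 change 2.91 ± 0.43 SE, adjusted p = 0.000837), Lrrtm4 (1.42) and Slitrk1 (22.4, 28.6 and 24.4 in hippocampus against 8.38, 9.48 and 8.36 in cortex). The regions did not overlap for any of the 6, which had been taken because they were called. The share of all genes without overlap is not given here. Of 27 guidance genes 5 were higher and 1 lower. The netrin receptors Unc5d (293, 111 and 136 in hippocampus against 29.3, 38.6 and 17.9 in cortex; log2 change 2.62 ± 0.28 SE, adjusted p = 8.07e-05) and Unc5c (2.83), the ephrin system genes Epha7 (1.84) and Efnb2 (1.98) and the semaphorin receptor Nrp2 (2.22) were higher, and the semaphorin Sema3e (-1.90) lower. The cadherin Cdh12 was lower (-2.11, 17 cadherins).

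**Figure D4:**
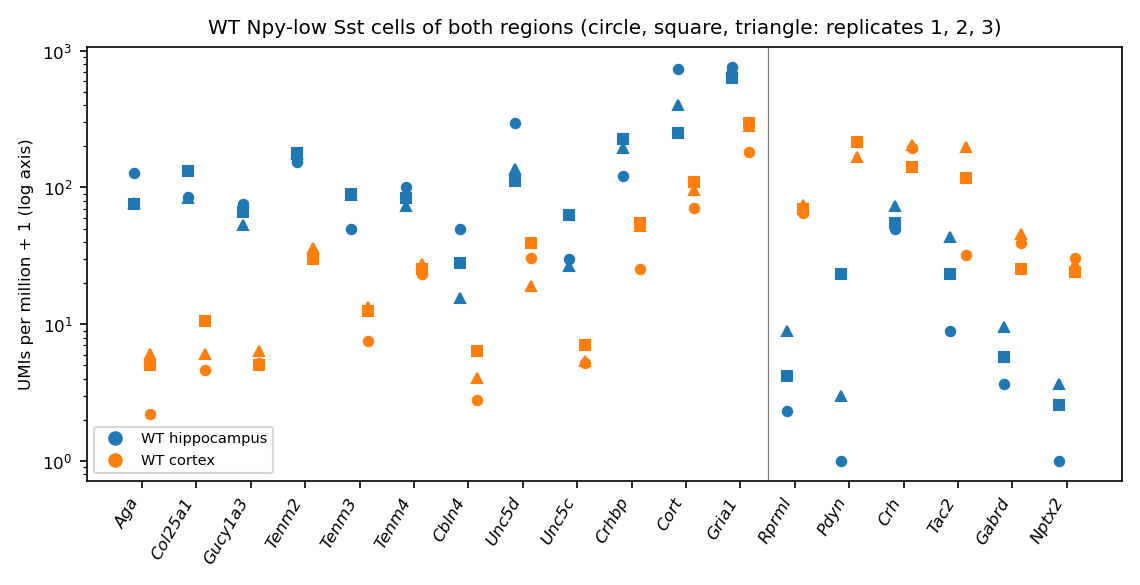
CPM plus 1 (log axis) of 18 genes in WT Npy-low Sst cells, with hippocampal libraries in blue and cortical libraries in orange (n = 3 each). Left of the line the hippocampal libraries lie higher and right of it lower, and only Tac2 overlaps between regions.

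Receptor genes also differed, in the fit that called 1.95% of all genes. Gria1 was at 762, 632 and 745 in hippocampus against 179.6, 297 and 280.1 in cortex (log2 change 1.51 ± 0.21 SE, adjusted p = 0.000507), while the NMDA receptor subunit Grin3a (-1.07) and Cacng3 (-1.15) were lower in hippocampus, the 3 calls among 20 ionotropic glutamate receptor genes. Of 14 GABA receptor genes 3 were higher, Gabra2 (2.08) among them, and 1 lower, Gabrd, a subunit of extrasynaptic receptors, 2.63, 4.77 and 8.56 in hippocampus against 38.3, 24.4 and 45.1 in cortex (log2 change -2.70 ± 0.35 SE, adjusted p = 0.000347). The serotonin receptor Htr7 was higher, 19.7, 17.5 and 21.1 in hippocampus against 2.99, 2.71 and 3.72 in cortex (log2 change 2.55 ± 0.38 SE, adjusted p = 0.000909), and the nicotinic subunit Chrna4 lower (-1.52). Chrna2 was lower in all 3 replicates, 7.90, 15.9 and 4.61 in hippocampus against 26.9, 30.5 and 22.8 in cortex, without passing (log2 change -1.67 ± 0.35 SE, adjusted p = 0.0123). Of 28 potassium channel genes 3 were called, Kcnip4 (-1.96), Kcnip1 (-1.28) and Kcnj9 (-1.29), all lower.

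Among transcription factors, Sp9 was higher, 98.7, 58.8 and 91.5 in hippocampus against 14.4, 21.7 and 13.9 in cortex (log2 change 2.35 ± 0.27 SE, adjusted p = 0.000114), as was Id2 (1.64), and Sox6 was lower (-1.22). Nptx2, a secreted pentraxin that gathers AMPA receptors, was at 0, 1.59 and 2.63 in hippocampus against 29.3, 23.0 and 26.5 in cortex (log2 change -3.94 ± 0.50 SE, adjusted p = 0.000267), and the reelin pathway kinase Fyn was higher (1.27). Genes listed for other cells were called too, against 1.95% of all genes. Hapln1 (3.49) and Id2 of 4 neurogliaform genes, Tcap (1.85, with replicate 2 slightly lower) and Pthlh of 6 Pvalb-cell genes, Aldoc (1.85) of 3 astrocyte genes, and Mbp (1.36) and Cnp (1.90) of 9 oligodendrocyte genes were higher in hippocampus. The oligodendrocyte list summed to 441, 1175 and 406 in hippocampal and 217, 263 and 190 CPM in cortical cells, and its part in the regional calls was not tested.

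The promoter of the gene that defines the cells shows the element through which cAMP signalling acts on it, as background. RefSeq promoter windows (GRCm38.p6, 300 bases each) were searched for TGACGTCA, which reads the same on both strands. It was in 588 of 32851 windows (1.79%). Of 61 genes, those taken by list or size of change between the Npy classes with Sst and Npy, 41 had a window, and 2 of these held the element, Sst and Cartpt. The 250 bases before the start are shown for both, with the element in capitals, from chr16:23890845-23891094 for Sst and chr13:99900684-99900933 for Cartpt, both on the minus strand.
Sst: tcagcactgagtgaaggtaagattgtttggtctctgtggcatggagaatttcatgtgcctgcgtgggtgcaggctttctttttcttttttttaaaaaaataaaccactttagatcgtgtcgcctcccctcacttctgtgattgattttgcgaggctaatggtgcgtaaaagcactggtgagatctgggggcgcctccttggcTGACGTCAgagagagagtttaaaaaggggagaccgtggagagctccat
Cartpt: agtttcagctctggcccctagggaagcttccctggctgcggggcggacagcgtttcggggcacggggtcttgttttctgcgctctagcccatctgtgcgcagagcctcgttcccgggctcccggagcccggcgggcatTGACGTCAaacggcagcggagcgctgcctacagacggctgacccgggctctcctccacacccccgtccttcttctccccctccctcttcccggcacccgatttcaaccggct
A match describes the letters of the window and not binding.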

How the data were processed

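The authors deposited UMI counts per gene and cell for 10 libraries in 4 matrices, from 10x libraries aligned to mm10 (Cell Ranger 2.1.1 in the labels and methods, 3.0.2 in the matrix header). Gene ends had been lengthened by 4 kb, or to the midpoint before the next feature where that was nearer. Libraries were taken from barcode suffixes. Counts of the members were summed per library (413781 to 3088905 UMIs in hippocampus) and tested with edgeR 4.0.16 (TMM, quasi-likelihood, low counts filtered by its default rule), over all 10 libraries for genotype and region-by-genotype, over 6 WT libraries for region, and with the library as a block for Npy classes. Called means adjusted p (Benjamini-Hochberg) under 0.01 plus a change of 0.1 or more in natural logs (0.144 in log2). Pairing by replicate number was checked: deviations from the group mean correlated between WT hippocampus and cortex at 0.717, 0.624 and 0.327 over 6690 genes, and between WT and Grin1-null hippocampus at 0.167. Detection shares after thinning are exact expected shares. Fits were tested on simulated data, whose outcome is not given here. DESeq2 1.42.0 and further settings served as alternatives. Where 1 library is left out and 1 remains, the lone library is assumed to vary like the others. Genes named outside the lists are the 10 largest rises and falls among calls whose libraries did not overlap or, between Npy classes, shared 1 sign in 5 of 5 libraries; gate, unnamed, mitochondrial, Y-linked and Xist genes were left out. Members and lists were chosen with earlier results of these data known. Pooled animals mean that p-values measure the spread between libraries.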

Additional observations from a re-analysis of the deposited data

Results flagged for a closer look

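Bcas1, a gene of myelinating oligodendrocytes, stood out because its Npy-low minus Npy-high change differed between Grin1-null and WT libraries by -4.74 ± 0.752 SE on the log2 scale in the test of that difference (edgeR, adjusted p = 0.0012). Its level in Npy-low cells of WT replicate 2 was 293 CPM, against 0 to 27.0 in the other 4 libraries. DESeq2 did not call it, and its source was not tested.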

How the results depend on the processing

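Grin1's log2 change was -3.27 with DESeq2 and -3.24 without the filter on low counts, both past the threshold. Called between genotypes were 1 gene with DESeq2, 1 at an adjusted p under 0.05 and 20 without the filter. For the difference between regions in the genotype change, 3 genes were called without the filter. Between Npy classes, 47 were called with DESeq2, 273 at an adjusted p under 0.05, 0 without the library block, 257 without the filter, and 55 to 192 with 1 library left out. For the genotype change by Npy class, 0 were called with DESeq2, 5 without the filter and 0 to 4 with 1 library left out. Between regions, 126 were called with DESeq2, 12 with Npy at 0 UMIs, 11 with Sst at or above 6000 CPM, 109 at an adjusted p under 0.05, 11 with library-size scaling, 238 without the filter, 24 in cells of at least 4000 UMIs, 199 with the replicate block, and 0 to 25 with 1 library left out. The Reln share differed by 1.38 percentage points with Npy at 0 UMIs, 1.08 with Sst at or above 6000 CPM, 17.6 without thinning, and -6.92 to 6.70 with 1 library left out. The cause of these differences was not tested. For single genes over all alternatives, calls were kept or stayed absent in 470, 462 and 5 cases (Npy classes, regions, genotype by Npy class), lost in 147, 22 and 2, and gained in 1, 137 and 0. Estimates changed sign, with no call in either fit, in 6, 2 and 0 cases, and in 56 for genotype, where 728 did not. No called value reversed. The replicate block was fitted for genotype, region and region-by-genotype only. It changed the regional calls, and the other 2 comparisons held 0 calls with and without it. Leaving out 1 library was added after seeing the data for the 2 genotype interactions, as was the replicate block for that between regions.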

Other observations

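Without the filter on low counts, edgeR called 20 genes between genotypes in the members. Besides Grin1 they included Xist (519.8, 0 and 294 against 0 and 0 CPM, WT replicates 1 to 3 against Grin1-null replicates 1 and 2), the choroid plexus gene Ttr (1.32, 0 and 56.6 against 0 and 0.971) and Bcas1 (1.32, 106 and 26.3 against 0 and 2.59), each high in 1 or 2 WT libraries. These genes were chosen after their values were seen. The reporter transcript was at 412, 489 and 779 against 486 and 797 CPM, with the genotypes overlapping.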
